A study of Mus musculus with 12 samples.

Results

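The mRNAs described here are 9 transcripts that begin, or are commonly listed as beginning, with a 5' terminal oligopyrimidine (TOP) motif but encode no ribosomal protein, initiation factor or elongation factor. They were chosen by gene symbol and comprise Tpt1, Npm1, Naca, Btf3, Nap1l1, Rack1, Hnrnpa1, Vim and Ybx1, out of 55450 annotated genes. The name TOP mRNAs is used below for all 9, also for those without an annotated start of this kind. A LARP1 binding region was assigned to one of them if it overlapped an exon of that gene on the same strand. By this rule 17 of 3189 regions in the control list, and 28 of 2367 regions listed for Rnmt cKO cells, belonged to these mRNAs. Exons of all genes held 826 control and 1364 Rnmt cKO regions.

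A TOP motif is a C at the capped first position of an mRNA followed by an unbroken run of C and U. LARP1 holds the cap and this run together through its DM15 domain, which keeps TOP mRNAs stable but untranslated when growth signalling is low. RNMT adds the methyl group to the cap guanosine that LARP1 and the initiation factor EIF4E both recognise. In T cells, TOP mRNAs are released for translation when the resting cell is activated and begins to grow.

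The series used CD4 T cells isolated with magnetic beads from lymph nodes of female mice on a C57B6/J background. The paper describes these cells as naive. Its methods name a CD4 T cell kit for eCLIP, and a naive CD4 T cell kit for ribosome footprinting. Both genotypes carried floxed Rnmt alleles on both chromosomes (Rnmt fl/fl). The control mice had no Cre (CD4cre -), and the Rnmt cKO mice had Cre under the Cd4 promoter (CD4cre +). Per the paper, this Cre removes Rnmt in the thymus, at the double positive stage that precedes mature T cells. Ages of the mice, and whether animals were pooled, are not given in the sources used here. LARP1 was crosslinked to RNA with ultraviolet light and immunoprecipitated, and the bound RNA was sequenced as enhanced crosslinking immunoprecipitation (eCLIP) libraries. Of 12 libraries, only the LARP1 immunoprecipitations of the main experiment gave the lists used here, with 1 library per genotype. There was therefore no replicate check, no test was made, and differences between the lists are differences between these libraries. The region lists measure called binding and not RNA level, so that more binding per molecule and more molecules cannot be told apart. Exonic regions were listed for 3 of 11 CD4 T cell markers in control cells and for 2 in Rnmt cKO cells. None of 9 markers of other leukocytes had one. Over all protein-coding genes the shares were 2.59% and 3.17%, so the absence for 9 genes says little about which cells were present.

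A region is 1 or more crosslink sites joined by the PureCLIP caller, and its score is the sum of the scores of its sites. Scores are on the scale of the model fitted to each library. Regions are therefore compared by their rank within their own list, where rank 1 is the highest score, or by their percentile, which is the share of the list with a lower score. A region was called near a start if its first base lay within 50 nt of an annotated transcription start site (TSS) of the gene.

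The sequences at the 5' ends are shown first, because a TOP motif, where present, lies there. Each line gives 30 bases or fewer of the RNA-like strand of GRCm38 from 5' to 3', and capitals mark the bases covered by the highest-scoring region near a start in either list.
Tpt1: gcccgcgtcggccTTTTccgcccgctcccc
Rack1: ggccgctctttcTTTTTctccacagggtcg
Naca: tcgctcgttctctTTCtgccgccatcttgg
Npm1: gtcctttccttGGCGTGattccgtcctgcg
Nap1l1: gctctcgggtcttTTTTagcgccatctgct
Btf3: tacttccggcctccCtctagctgccatctt
Vim: ttgtccagtcctctGccactcttgctccgg
Hnrnpa1: tcctttctgctcttTGacgctgccgaggaa
In the same order these windows lay at chr14:75845319-75845348 (plus strand), chr11:48800349-48800378 (plus), chr10:128035636-128035665 (plus), chr11:33163054-33163083 (minus), chr10:111473217-111473246 (plus), chr13:98316965-98316994 (minus), chr2:13574301-13574330 (plus) and chr15:103240452-103240481 (plus). Ybx1 had no region, and the 30 bases from its RefSeq start (chr4:119294484-119294513, minus strand) are given for comparison.
Ybx1: cgccattctcgctagttcgatcggtagcgg

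At the 5' ends the regions sat in, or directly after, a run of pyrimidines. The run was 16 nt long in Rack1, 10 nt in Naca and in Npm1, 9 nt in Btf3, 8 nt in Tpt1 and in Nap1l1, and 6 nt in Vim. In Hnrnpa1 the run measured was 9 nt long but ended 7 nt before the region. The run measured was the longest that reached the region or ended at most 10 nt before it. Among the other protein-coding genes with a region near a start, the median run was 9 nt in both lists, and a run of at least 5 nt was found for 87.1% of 264 control genes and 84.2% of 284 Rnmt cKO genes. All 7 TOP mRNAs bound near a start in control cells, and all 8 in Rnmt cKO cells, had such a run, also with a median of 9 nt.

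The position within the run differed from gene to gene. In both lists the region began at base 3 of the run in Tpt1, base 5 in Nap1l1, base 6 in Btf3 and base 7 in Naca. In Rack1 it began at base 11 in control and at base 8 in Rnmt cKO cells. In Npm1 and Vim the region began on the G immediately after the run. In Hnrnpa1 the 9 nt run ended 7 nt before the region, and a second run, the bases ctcttt, led into it.

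Annotated starts only partly captured these runs. A start with C followed by at least 4 pyrimidines was annotated within 50 nt of the region for Tpt1 (Tpt1-206, 7 pyrimidines), Nap1l1 (Nap1l1-207, 7 pyrimidines), Rack1 (Rack1-201, 10 pyrimidines) and Hnrnpa1 (Hnrnpa1-202, 6 pyrimidines). The Tpt1 start belongs to a retained-intron transcript. Of all 58797 protein-coding transcripts, 2.14% began in this way, and 5.12% of 21901 protein-coding genes had at least 1 such transcript. None of the annotated starts near the regions of Npm1, Naca, Btf3 and Vim met this rule, although a pyrimidine run lay beside each region. Of the annotated Ybx1 starts none began with C and 4 pyrimidines, and the RefSeq start had a single C before a G.

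The pyrimidine content of all regions near a start was measured over 15 nt centred on their first base. In the control list these included the Tpt1 site at 75846159, near the start of Tpt1-202 within the gene. C and T made up 72.5% of 120 bases from 8 control regions (95% Wilson interval 63.9 to 79.7%) and 75.0% of 120 bases from 8 Rnmt cKO regions (66.6 to 81.9%). In other protein-coding genes the share was 74.2% in the control (276 regions, 72.9 to 75.5%) and 72.2% in the Rnmt cKO list (316 regions, 70.9 to 73.5%). The intervals cover counting error over bases only, and they overlapped between the lists and between the gene groups. With only the highest-scoring region near a start of each TOP mRNA, the shares were 75.2% in control and 75.0% in Rnmt cKO cells.

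To ask which of these mRNAs were bound, genes with a region were counted. Exonic binding was called for 8 of the 9 genes in each list, where the share of all 21951 protein-coding genes was 2.59% for control and 3.17% for Rnmt cKO cells. A region near a start was found for 7 genes in the control list, against 1.23% of protein-coding genes, and for 8 genes in the Rnmt cKO list, against 1.33%. The additional gene was Hnrnpa1, and Ybx1 had no region in either list. Regions near a start made up 8 of the 17 control regions of these mRNAs, against 36.7% of all exonic regions. In the Rnmt cKO list they made up 8 of the 28 regions, against 25.1%. The control count includes the Tpt1 site at 75846159, near the start of Tpt1-202 within the gene. Regions of at least 2 sites made up 5 of the 17 (29.4%), against 28.3% of all control exonic regions, and 15 of the 28 (53.6%), against 49.9% of all Rnmt cKO exonic regions, so that both shares were close to the background. For comparison, 13 of 15 core translation-factor TOP genes had a region near a start in each list, as did 73 of 81 cytosolic ribosomal protein genes in control and 77 in Rnmt cKO cells.

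**Figure D1:**
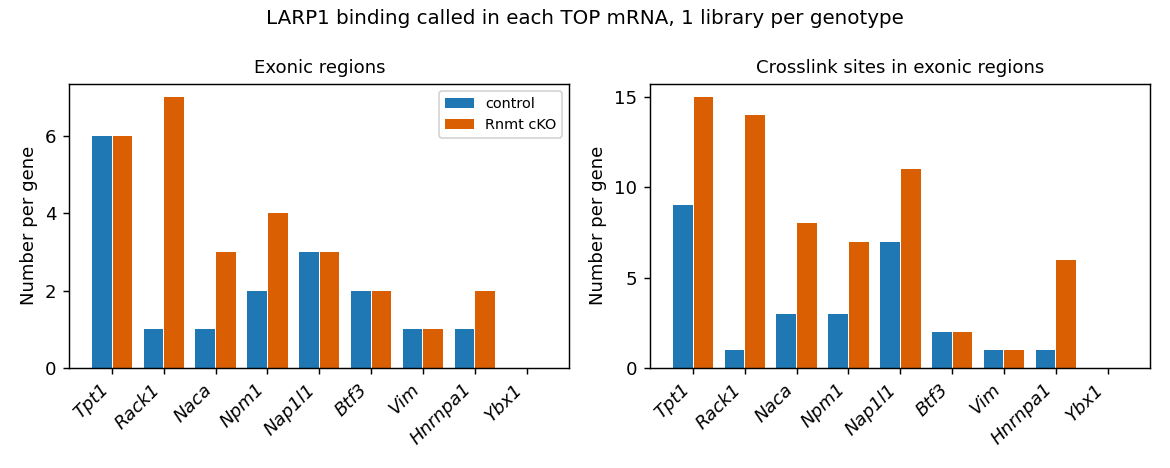
Number of exonic LARP1 regions (left) and of crosslink sites within them (right) for each of the 9 TOP mRNAs, with 1 bar for the control and 1 for the Rnmt cKO library. Rack1 had 1 and 7 regions and 1 and 14 sites, whereas Btf3 and Vim had equal numbers in both lists and Ybx1 had none.

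The genes are described by their roles, beginning with the factors that act at or near the ribosome. Rack1 encodes a scaffold protein of WD repeats that docks on the small ribosomal subunit. In the control list its only region was a single site at chr11:48800364 (plus strand), in the 5'UTR and 4 nt downstream of the Rack1-201 start, with a score of 290.4 and rank 136. In the Rnmt cKO list the region had 5 sites from 48800361 to 48800365, with a score of 1054 and rank 47. Among the protein-coding genes with a region near a start, Rack1 took place 76 of 271 in control and place 36 of 293 in Rnmt cKO cells.

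Of the 9 genes, Rack1 also had the most regions without a control counterpart. The Rnmt cKO list held 6 regions in the Rack1 CDS that were not in the control list, between 243 and 894 nt after the first base of the start codon. Over all protein-coding genes, 79.3% of 963 Rnmt cKO exonic regions not near a start were likewise in that list alone. The ranks of the 6 Rack1 regions lay between 499 and 1782 of 2367. The highest, of 4 sites and score 37.2, lay in exon 8 at chr11:48805986-48805989, 56 nt before the end of the CDS. The other 5 were single sites.

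Naca and Btf3 encode the alpha and beta subunits of the nascent polypeptide-associated complex, which binds growing chains at the ribosome exit. The Naca region near the start was the same in both lists, with 3 sites at chr10:128035649-128035651 (plus strand), 14 nt downstream of the Naca-202 start and 37 nt before the start codon. Its score was 587 with rank 78 in control and 683 with rank 72 in Rnmt cKO cells. The Rnmt cKO list held a second region over the start codon of Naca (chr10:128036489-128036492, 4 sites, score 21.3, rank 732). The region began 2 nt before the codon and covered its A and T, and the sequence is given from the first base of that exon (chr10:128036489-128036505), with the region in capitals.
Naca start codon: AAATgcccggtgaagcc
Another Naca region, in the CDS at 128046194 in the Rnmt cKO list alone, had a score of 2.52 and rank 1743.5.

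Btf3 ranked lower than Naca at its 5' end in both lists. Its region near a start was a single site in the 5'UTR at chr13:98316980 (minus strand), 26 nt downstream of the Btf3-205 start and 13 nt upstream of the Btf3-201 start. The score was 81.2 with rank 339 in control and 37.2 with rank 498 in Rnmt cKO cells. The percentile of this region was 89.4 in control and 79.0 in Rnmt cKO cells, a difference of -10.4 points. With the control list cut to the 2367 highest-scoring regions, the length of the Rnmt cKO list, the difference was -6.72 points. The other Btf3 region, a single site in the CDS at 98313171, was also in both lists and low in each, with scores of 4.62 and 2.52 and ranks of 2012 and 1742.

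Tpt1 encodes the translationally controlled tumour protein, a small protein linked to growth and survival. Its region near the start was identical in position in the lists, with 4 sites over the T run at chr14:75845332-75845335 (plus strand), 1 nt downstream of the Tpt1-206 start and 97 nt before the start codon. The score was 1110.0 with rank 38 in control and 1073 with rank 45 in Rnmt cKO cells. In the control list this was the highest place of the 9 genes, 23 of 271 protein-coding genes, and in the Rnmt cKO list it was 34 of 293.

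Tpt1 also had the most regions outside its 5' end in the control list. In both lists a single site lay in its CDS at 75845681, 92 nt after the first base of the start codon, with a score of 199 and rank 183 in control and a score of 116 and rank 213 in Rnmt cKO cells. Further CDS regions of both lists lay at 75846334 (ranks 604 and 333), 75846388 (ranks 1220 and 154, scores 12.1 and 179) and 75846786 (ranks 2289 and 260). At each of these last 3 positions the control list held a single site and the Rnmt cKO list 2, 3 and 4 sites. The Rnmt cKO list alone held a CDS site at 75845643 (rank 457), and the control list alone a site at 75846159 (rank 1691) in an exon of a retained-intron transcript, 26 nt upstream of the Tpt1-202 start.

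Npm1 and Nap1l1 encode histone chaperones, of which nucleophosmin (Npm1) also takes part in ribosome assembly in the nucleolus. The Npm1 region near the start spanned chr11:33163067-33163072 (minus strand) in both lists, with 2 sites that began at the Npm1-202 start. The score was 476 with rank 97 in control and 496 with rank 92 in Rnmt cKO cells. A CDS region 538 nt after the first base of the start codon was also in both lists, as a single site in the control (33157031, score 17.9, rank 1011) and as 3 sites in the Rnmt cKO list (33157029 to 33157031, score 74.4, rank 302). The Rnmt cKO list alone held 2 further CDS sites with scores of 2.09 and 0.735. The window around the shared CDS region (chr11:33157015-33157044) begins with a repeat of gat.
Npm1 CDS: gatgatgatgattTTGatgaagaggaaact

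The Nap1l1 region near the start had 4 sites at chr10:111473230-111473233 (plus strand) in both lists, 3 nt downstream of the Nap1l1-207 start. It scored 162 with rank 210 in control and 186 with rank 150 in Rnmt cKO cells. A CDS region in exon 10 was a single site at 111493427 in the control list (score 3.42, rank 2154) and 5 sites from 111493426 to 111493430 in the Rnmt cKO list (score 59.9, rank 353). Its sequence (chr10:111493414-111493442) holds a run of T, as the 5' end does.
Nap1l1 CDS: tttctttaatttTTTTGctcctcctgaag
The remaining Nap1l1 regions were in 1 list each, with 2 sites in the CDS at 111495364 to 111495365 for control (score 5.62, rank 1750) and 2 sites in a 3'UTR for Rnmt cKO cells (score 1.70, rank 1863).

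Hnrnpa1 and Ybx1 encode RNA-binding proteins, a splicing regulator and a cold shock domain protein. Hnrnpa1 had no region of both lists. Its region near a start was in the Rnmt cKO list alone, with 2 sites at chr15:103240466-103240467 (plus strand), a score of 24.8 and rank 659, 12 nt downstream of the Hnrnpa1-202 start and 1 nt upstream of that of Hnrnpa1-204. The same list held 4 sites in a 3'UTR (103245589 to 103245592, score 6.27, rank 1313). The control list held only a CDS site at 103241533 with a score of 0.841 and rank 2864.5 of 3189. Ybx1 (chr4:119277981-119294604, minus strand) had no exonic, intronic or antisense region, and none in the 200 nt upstream of it, in either list.

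Vim encodes vimentin, the intermediate filament protein of mesenchymal cells and leukocytes. Its only exonic region was the same single site in both lists, at chr2:13574315 (plus strand). This site was 4 nt downstream of the RefSeq start and 7 nt upstream of the nearest GENCODE start, that of the retained-intron transcript Vim-204. The score was 36.6 with rank 552 in control and 65.2 with rank 337 in Rnmt cKO cells.

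**Figure D2:**
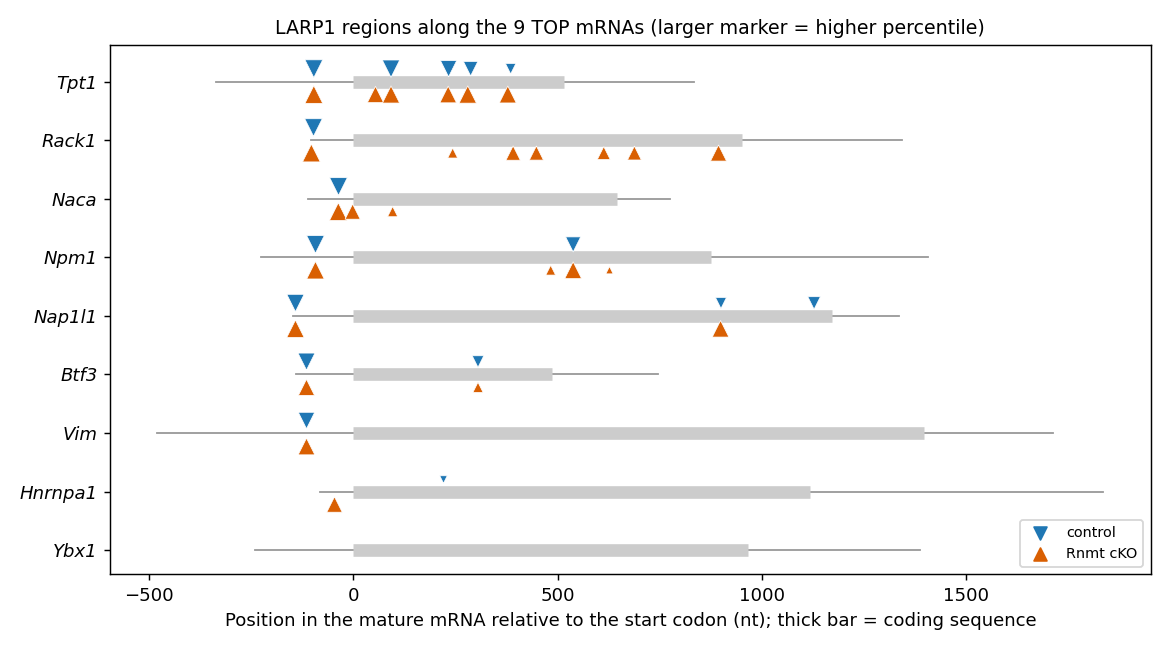
Position of each LARP1 region along 1 protein-coding transcript per gene, in nt from the start codon, with the coding sequence as a thick bar, control regions as downward and Rnmt cKO regions as upward triangles, and larger triangles for higher percentiles. All genes but Ybx1 have an Rnmt cKO triangle upstream of the start codon, in Rack1 the triangles in the CDS are from the Rnmt cKO list alone, and the 3 regions outside the drawn transcripts are left out.

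The order of the genes by their leading region near a start was compared next. In the control list it ran Tpt1 (percentile 98.8), Naca (97.6), Npm1 (97.0), Rack1 (95.8), Nap1l1 (93.4), Btf3 (89.4) and Vim (82.7). In the Rnmt cKO list it ran Tpt1 (98.1), Rack1 (98.0), Naca (97.0), Npm1 (96.1), Nap1l1 (93.7), Vim (85.8), Btf3 (79.0) and Hnrnpa1 (72.2). With 1 library per genotype, it is not known which neighbours in this order would differ in a repeat.

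The median percentile over the genes with such a region was 95.8 in control (7 genes) and 94.9 in Rnmt cKO cells (8 genes, with Hnrnpa1). The corresponding medians were 91.7 and 92.2 for the core translation-factor TOP genes, 98.2 and 97.8 for the ribosomal protein genes, and 82.7 and 82.0 for all protein-coding genes with a region near a start. No difference between these groups was tested. For the TOP mRNAs the order of the genotypes turned when Hnrnpa1 was left out, with Npm1 (96.1) as the Rnmt cKO median of the same 7 genes. It also turned with lists of equal length (94.3 in control) and with regions of at least 2 sites (84.9 over 4 genes in control and 92.4 over 6 genes in Rnmt cKO cells). Of the 7 TOP mRNAs with a region near a start in both lists, 3 (Rack1, Vim and Nap1l1) had a higher percentile in the Rnmt cKO list, against 45.9% of 218 protein-coding genes, and the median difference (Rnmt cKO minus control) was -0.59 points. These signs depended on the unequal lengths of the lists. With lists of equal length 5 of the 7 were higher, Naca and Npm1 in addition, against 65.3% of 216 protein-coding genes, and the median difference was 0.25 points, within a range of -6.72 (Btf3) to 9.08 (Vim). Cutting the lowest-scoring control regions lowers every remaining control percentile, so each difference could only rise. Rack1, Vim and Nap1l1, higher in the Rnmt cKO list with the full lists, therefore had to stay higher. Tpt1 and Btf3 were lower in the Rnmt cKO list at both lengths.

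**Figure D3:**
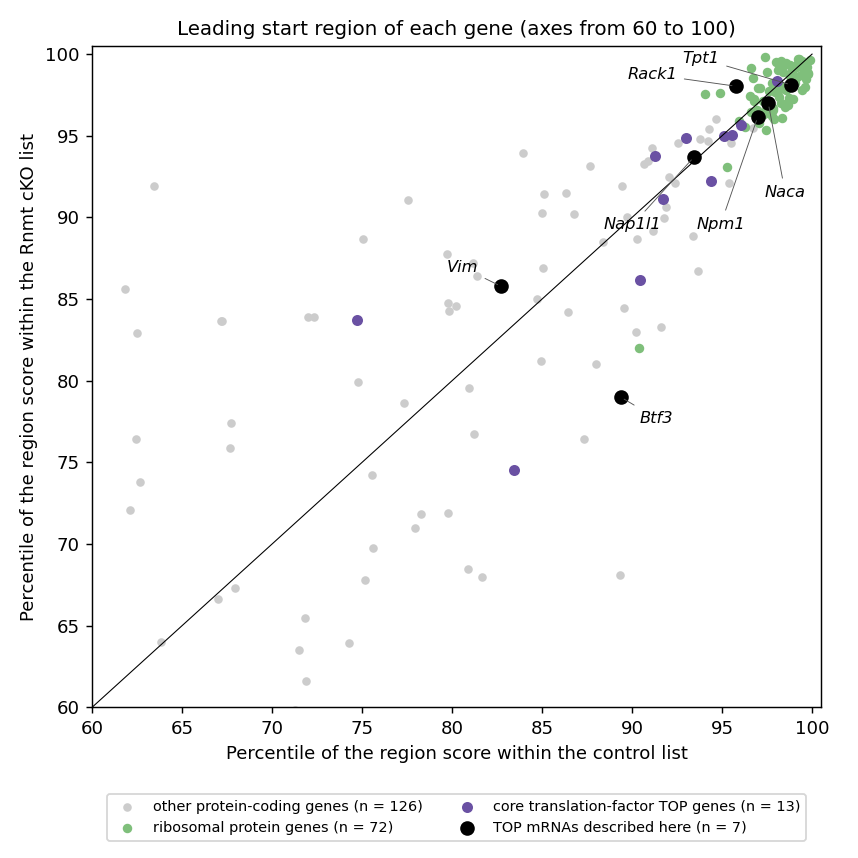
Percentile of the leading region near a start within the control list (x axis) and within the Rnmt cKO list (y axis) for genes that have one in both lists, with a line of equality and both axes drawn from 60 to 100. Tpt1, Naca, Npm1, Rack1 and Nap1l1 lie above percentile 93 in both lists, Vim lies above and Btf3 below the line, and 49 genes outside the drawn range are left out.

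The protein-coding gene with the most similar pair of percentiles was looked for among 211 others, and is given for these mRNAs except Npm1. It was Rps21 for Tpt1 (0.19 points away), Cox7a2l for Naca (0.13), Rpl27 for Rack1 (0.95), Tubb5 for Nap1l1 (1.19), Nol7 for Vim (1.49) and Gapdh for Btf3 (2.47). The measure is the straight-line distance between the pairs, over these 2 libraries.

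The lists were then compared by overlap. Of the 17 control regions of the TOP mRNAs, 14 overlapped an Rnmt cKO region (82.4%, 95% Wilson interval 59.0 to 93.8%), against 26.3% of all control regions and 54.4% of those in exons. The share was 80.8% for the core translation-factor TOP genes and 92.2% for the ribosomal protein genes. Likewise 14 of the 28 Rnmt cKO regions overlapped a control region (50.0%, 32.6 to 67.4%), against 35.4% of all Rnmt cKO regions and 33.0% of those in exons, and 51.2% and 52.7% for the same comparison groups. These intervals cover counting error over regions only, and regions of 1 gene are not independent. The regions found in 1 list alone numbered 3 for control and 14 for Rnmt cKO cells.

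By number alone, coding sequence held most regions in each list, before the authors' filter on input and IgG. By score the regions outside the starts lay lower, with median percentiles of 45.1 in control and 60.1 in Rnmt cKO cells. The leading regions near a start had medians of 95.8 and 94.9. In the control list 7 regions of the TOP mRNAs were in 5'UTRs, 9 in CDS and 1 in a non-coding exon. In the Rnmt cKO list 9 were in 5'UTRs, 17 in CDS and 2 in 3'UTRs. Outside the starts, 13 of 20 Rnmt cKO regions were found in that list alone, against 79.3% of 963 such regions over all protein-coding genes, and 2 of 9 control regions were found in that list alone, against 57.9% of 473. The share found in the Rnmt cKO list alone was therefore no higher for the TOP mRNAs than the background share.

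Regions found in both lists were compared as pairs, at the starts and elsewhere in exons. Near a start, 6 of 7 pairs had the same number of sites in both lists, and only Rack1 had more in the Rnmt cKO list, where 71.3% of 223 such pairs over all protein-coding genes had more. Elsewhere, 5 of 7 pairs had more sites in the Rnmt cKO list, against 53.9% of 204 pairs over all protein-coding genes. The same 5 pairs, of Tpt1, Npm1 and Nap1l1, had a higher percentile in the Rnmt cKO list, against 60.8% of the 204. A score adds up the sites of a region, so the number of sites and the percentile are not separate measures. These differences ran from 4.88 points at Tpt1 75846334 to 60.8 points at Tpt1 75846786. The other pairs, the Tpt1 site at 75845681 and the Btf3 CDS site, had 1 site in each list and differences of -3.25 and -10.5 points. With lists of equal length the Btf3 CDS difference turned to 11.4 points and that of the Tpt1 site was -1.27 points, so that 6 of the 7 pairs were higher in the Rnmt cKO list, against 82.6% of 195 pairs. Shortening the control list could only raise these differences. Whether the pairs near a start and elsewhere differ was not tested.

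**Figure D4:**
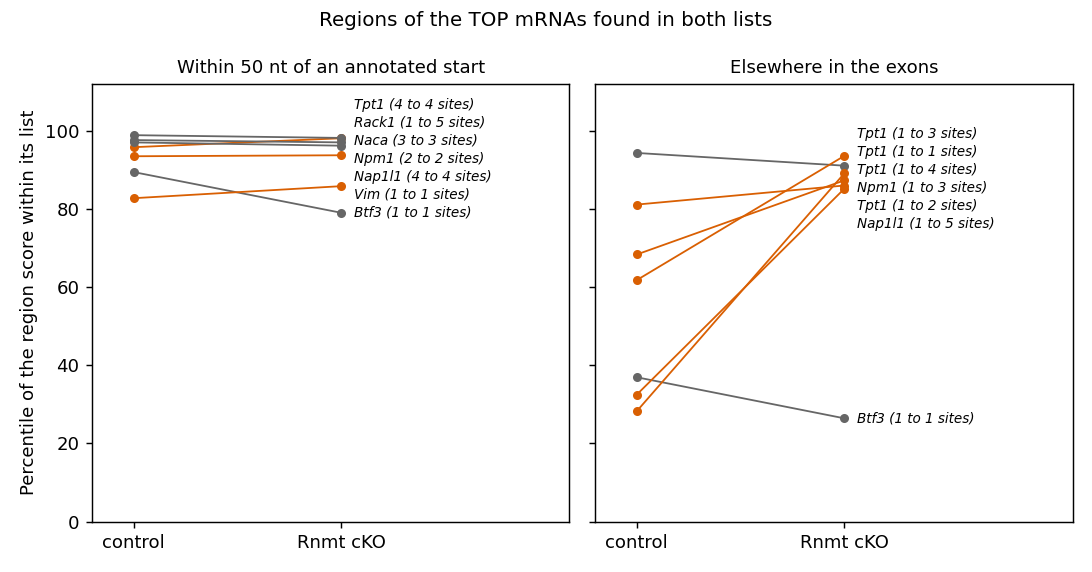
Percentile of each region found in both lists, joined by a line from the control to the Rnmt cKO list, for pairs near an annotated start (left, 7 pairs) and elsewhere in exons (right, 7 pairs), with orange for a higher percentile in the Rnmt cKO list and labels in the order of the Rnmt cKO values. On the right, 5 lines slope upward, from between 28.2 and 81.1 to between 85.1 and 93.5, and because the lists differ in length, small slopes and the direction of the Btf3 line on the right depend on that length.

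As a share of the summed score of each list, the regions of these mRNAs carried 1.66% in control and 2.75% in Rnmt cKO cells. As a share of regions these values were 0.533% and 1.18%. Exonic regions over all genes were also more numerous in the Rnmt cKO list (1364) than in the control list (826). The higher count was therefore not particular to these mRNAs. The lists differ in their model and in their content outside exons, so these shares do not give an order of binding between the genotypes.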

How the data were processed

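The deposited files are PureCLIP region lists from LARP1 eCLIP. The authors extracted read barcodes (umi_tools), trimmed adapters (cutadapt), aligned reads to mm10 (GRCm38) with STAR 2.5.2b, removed PCR duplicates and low-quality alignments, and called regions in each LARP1 library against its size-matched input. The deposited score of a region is the sum of its site scores, and the site values (another deposited column) gave the number of sites. Scores were not scaled between libraries. These lists precede the authors' later filter on read ratios to input and IgG, which was not repeated here. Removing low-quality alignments takes away reads of near-identical copies, so that genes with near-identical pseudogenes may be under-called. The IgG, input and preliminary libraries were not analysed here.

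The 24 regions on chromosome Y were left out of 5580. Regions were annotated with all transcripts of GENCODE M21 (GRCm38), and a region in several classes was given the first of 5'UTR, coding sequence (CDS), 3'UTR and non-coding exon. Positions in an mRNA refer to the protein-coding transcript that held most regions of the gene. Bases came from GENCODE transcripts and RefSeq promoters (GRCm38.p6), where 8 of the 9 genes were matched and Npm1 was not, and these sources differed at 0 shared bases. Percentiles used mid-ranks. The text names all 9 genes, their leading region near a start, their highest-scoring region elsewhere in each list, and the gene with the nearest pair of percentiles. A nearest gene, a marker gene and a sequence are not reported here. Other regions named were chosen after their values were seen, as was the rule for the pyrimidine run. Each group was 1 library, so no test was used. Shares carry 95% Wilson intervals. The genes and comparison lists were chosen with earlier results of these data known. The annotation steps were tested on simulated regions. Python 3.11.15, pandas 2.3.3, numpy 2.4.6, scipy 1.17.1 and matplotlib 3.10.9 were used. Region lists carry no read totals, so depth is unknown.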

Additional observations from a re-analysis of the deposited data

How the results depend on the processing

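Alternatives gave 76 values, of which 43 were labelled as staying and 29 as moving, and 4 changed sign. Shares and median percentiles stayed if they lay within the main value's interval, and counts if within 1.5 times. For median percentiles this was a Wilson interval over the length of the list, not over genes. Percentile differences had no interval, so any change without a change of sign was labelled as moving. The cause was not tested beyond the smaller lists that filters leave by construction. With at least 2 crosslink sites, the control list kept 5 regions in 4 of the genes, all 4 with a region near a start, and a median percentile of 84.9. The Rnmt cKO list kept 15 regions, of which 26.7% were shared, and a median percentile of 92.4 over 6 genes with a region near a start. This reversed the order of the lists for this median, over unlike sets of genes. Above the median score of each list, the control list kept 11 regions, 100% of them shared, and the median percentiles were 90.8 for control and 89.8 for Rnmt cKO cells. With equally long lists the control median was 94.3, below that of the Rnmt cKO list, so that the order was again reversed. The same lists, applied to the percentile differences after the data were seen, gave 5 of 7 genes higher at the start in Rnmt cKO cells and a median difference of 0.25 points (Naca 0.25, Npm1 0.21), a difference of 11.4 points for the Btf3 CDS site, and a median of 29.95 points for pairs elsewhere, against 18.9 with the full lists. Shortening the control list can move these differences upward only. Ranked by number of sites, the medians were 88.2 and 73.2. A 7 nt window gave pyrimidine shares of 82.1% and 85.7%. The numbers of genes near a start did not change with 25 or 100 nt as the limit. No replicate could be left out. No paired analysis was possible because the comparison rested on 1 library per genotype.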

Other observations

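Outside exons these genes had few regions. The Rnmt cKO list held 1 region in an intron of Hnrnpa1 (chr15:103246261-103246282, plus strand, 2 sites, score 15.2, rank 901), and neither list held another intronic region in the 9 genes. The control list held a single site at chr2:13573822, upstream of the first annotated Vim start, with a score of 4.83 that 176 regions of that list had in common. No region was antisense to any of the 9 genes. Rack1 contains 3 annotated snoRNA genes (Snord95, Snord96a and Gm25296) and Tpt1 and Nap1l1 contain 1 each (Snora31 and Gm25117), and no region of either list overlapped them. Of 7 annotated pseudogenes named after Tpt1 or Ybx1, none had a region in either list.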
